A study of Mus musculus with 4 samples.

Results

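Complement genes were examined in DFAT cells of the mouse, which resemble fibroblasts and come from mature adipocytes that shed their fat and revert to a proliferating state in culture. The set was 7 complement components and regulators (C2, C3, Cfb, Serping1, Cd55, Cd59a and Masp1), and its members were all probe sets whose only platform gene symbol was one of these. The rule found 15 probe sets for 6 of the 7 genes, among 34945 single-symbol probe sets for 18193 genes. C3 is not analysed here. Total RNA was hybridised to 4 Affymetrix arrays, 1 each for cells given the solvent DMSO, cells given Y-27632, cells transfected with a control siRNA and cells transfected with an siRNA against Mkl1. Y-27632 inhibits the ROCK kinases, which promote actomyosin contraction, and Mkl1, now called Mrtfa, encodes an actin-responsive coactivator of the transcription factor SRF. All cells were kept in the same serum-containing growth medium, and the labels give no dose, duration, age, sex or strain. With 1 array per group no test was possible, and precision is limited by the number of arrays.

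Complement is a cascade of blood and tissue proteins that tags particles for uptake, recruits leukocytes and can perforate membranes. The classical and lectin routes use proteases of the C1 and MASP families to cleave C4 and C2, and the alternative route uses factor B, the product of Cfb, in the place of C2. C1 inhibitor, the product of Serping1, blocks the starting proteases, while CD55 and CD59, both anchored to the cell surface, protect host cells. Liver makes much of the plasma supply, but fibroblasts and fat cells also make complement proteins, and fat tissue is a known source of factor D.

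As an early check, the targeted transcript Mrtfa differed by -0.85 between the siRNA arrays, at 7.70 on the log2 scale with its own siRNA and 8.55 with the control. The cells carried signal for the labelled type: all 8 fibroblast or stromal markers lay above the median of all values (5.69) on every array. Of 8 adipocyte markers, 7 were at least 2-fold higher with Y-27632 than with DMSO, beside 1.27% of all genes counted below. With Mkl1 siRNA, 7 were at least 2-fold higher than with control siRNA, beside 1.79%. Between the controls 0 were at least 2-fold higher and 0 lower, beside 0.957% and 1.09%. Markers of other complement-making cells lay mostly below that median. Of 11 macrophage or leukocyte markers, 4 reached the median on every array, while the pan-leukocyte marker Ptprc ran from 3.33 to 3.48. Of 6 measured hepatocyte markers, 2 reached it, and Alb ran from 4.71 to 4.83. The log2 of the summed signal of a list's genes, taken on each array, ran from 9.10 to 9.36 for leukocytes and 7.91 to 8.12 for hepatocytes. The 3 probe sets for 18S ribosomal RNA, a measure of RNA composition, had a median difference of -0.48 in each treatment comparison and 0.15 between the controls. The part of RNA composition in the values below was not tested, and in bulk RNA fewer cells of a type and less RNA per cell cannot be told apart.

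Of the 6 measured genes, only Cd59a and Cd55 had an entry among the RefSeq promoters of GRCm38.p6, so sequences before their listed start sites are shown. These genes encode the pair of membrane inhibitors in the set. Their probe sets lay far above (Cd59a) and far below (Cd55) the median of all values. The Cd59a sequence is chr2:104095551-104095752 on the plus strand, 202 bases that end before the first annotated start of the gene. The Cd55 sequence is chr1:130462745-130462994 on the minus strand, the 250 bases before the start site in the table. It lies inside the annotated span of the gene (130429798 to 130465009), so it is not upstream of the first annotated start. Both are written 5′ to 3′, and capitals mark a match to an interferon response element (GAAA, any 2 bases, GAAA).
Cd59a: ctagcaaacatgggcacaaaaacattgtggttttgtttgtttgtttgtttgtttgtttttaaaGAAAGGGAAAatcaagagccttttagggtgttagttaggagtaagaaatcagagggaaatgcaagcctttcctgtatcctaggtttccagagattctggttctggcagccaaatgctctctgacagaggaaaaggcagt
Cd55: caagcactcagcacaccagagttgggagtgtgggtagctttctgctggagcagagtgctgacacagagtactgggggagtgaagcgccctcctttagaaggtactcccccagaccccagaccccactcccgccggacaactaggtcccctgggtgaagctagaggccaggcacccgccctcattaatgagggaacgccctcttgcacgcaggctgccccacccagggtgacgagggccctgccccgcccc

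The Cd59a sequence was 40.1% G or C and the Cd55 sequence 64%. On both strands of the 250 bases before each start site, the interferon response element was found in 2.98% of 32851 promoters, with the single Cd59a match starting 187 bases before the start site of the table, which lies further into the gene than the end of the printed sequence. The other motifs were the gamma-activated site TTCNNNGAA (7.02% of promoters), the NF-kappa-B site (GGG, any 2 bases, TTTCC; 1.41%), the C/EBP site TTGCNNAA (9.56%), the peroxisome proliferator response element (0.338%) and the CArG box of SRF (1.47%). None of these letters was in the Cd59a or Cd55 window. A match describes the letters and not a bound site.

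The first question was whether these genes differed after ROCK inhibition or Mkl1 knockdown. No probe set of the 15 did by 2-fold or more in any comparison. Each difference is the log2 RMA signal of a treated array minus that of its control array, with control siRNA minus DMSO as background, and a gene was represented by its probe set with the highest mean. A gene entered the counts when its highest array reached 5.69, which 4 of the 6 did (C2, Cfb, Cd59a and Masp1). With Y-27632, 0 of these 4 were at least 2-fold from DMSO, beside 1.49% of all 11600 analysed genes. With Mkl1 siRNA, 0 of 4 were at least 2-fold from control siRNA, beside 3.53% of all genes. Between the controls 0 of 4 reached 2-fold, beside 2.04%. A count of 0 among 4 genes is near these shares and is no result about the members. The median difference of the 4 genes was -0.25 with Y-27632, -0.07 with Mkl1 siRNA and -0.09 between the controls, against 0.00, 0.00 and -0.01 over all analysed genes.

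**Figure D1:**
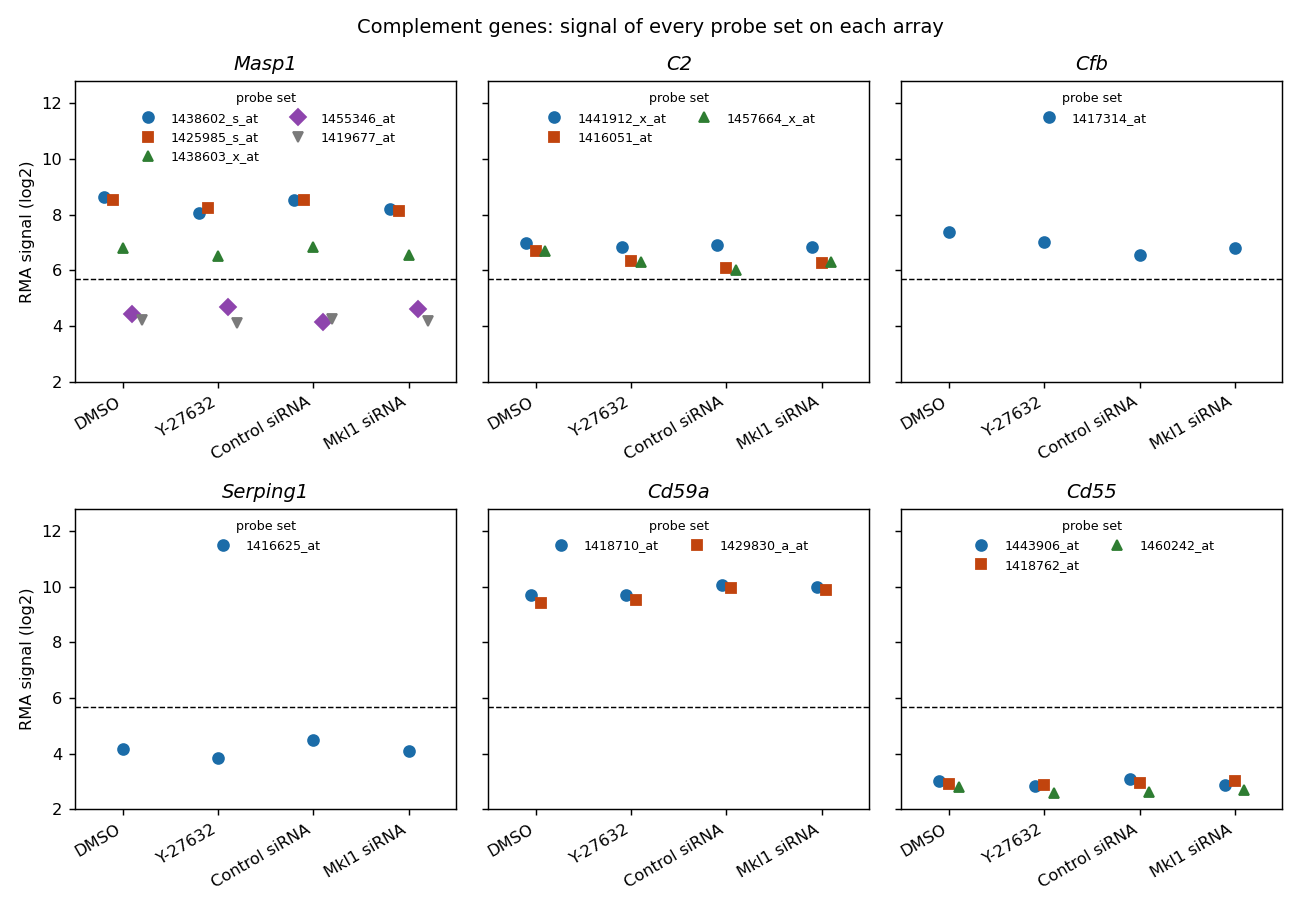
Log2 RMA signal (vertical axis) of all 15 complement probe sets on each of the 4 arrays, 1 panel per gene; each point is 1 array and the dashed line is the median of all values, 5.69. Cd59a lies above the median on every array, from 9.41 to 10.05, Cd55 and Serping1 lie below the median on every array, and the 5 Masp1 probe sets form a brighter group of 3 and a dimmer group of 2.

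Masp1 encodes proteases of the lectin route, and splicing gives it several products, among them MASP-1 and MASP-3. Its brightest probe set, 1438602_s_at, had a signal of 8.63 with DMSO, 8.06 with Y-27632, 8.54 with control siRNA and 8.21 with Mkl1 siRNA. Both treated arrays were thus below both control arrays. The differences were -0.56 with Y-27632, a ratio of 0.676, and -0.34 with Mkl1 siRNA, a ratio of 0.791, while the controls differed by -0.08. The Y-27632 value was larger in size than that of 97.0% of all probe sets, and the Mkl1 siRNA value than that of 78.9%.

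The other bright Masp1 probe sets had the same order of treated below control arrays. Probe set 1425985_s_at read 8.52 with DMSO, 8.23 with Y-27632, 8.54 with control siRNA and 8.15 with Mkl1 siRNA, so that the differences were -0.28 and -0.39. Probe set 1438603_x_at read 6.81, 6.50, 6.84 and 6.53 in the same order of arrays, with differences of -0.30 and -0.30. On these last 2 the controls differed by 0.02 and 0.03. Names ending in _s_at or _x_at are given to probe sets able to bind more than 1 transcript.

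The 2 dimmer Masp1 probe sets lay below 5.69 on every array and differed from each other. Probe set 1455346_at read 4.44 with DMSO, 4.69 with Y-27632, 4.16 with control siRNA and 4.61 with Mkl1 siRNA, which put both treated arrays above both controls, by 0.25 and 0.46. Probe set 1419677_at had the treated arrays on the low side but ran only from 4.12 to 4.26, with differences of -0.08 and -0.07. Without such probe sets, 1455346_at would be the brighter of the 2 left and stand for Masp1, below the filter, and its differences would turn from -0.56 to 0.25 and from -0.34 to 0.46. The files do not say which Masp1 product each probe set reads.

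C2 encodes the protease subunit of the classical and lectin C3 convertase, and factor B is its relative in the alternative route. The genes C2 and Cfb are neighbours on the chromosome. Cfb, read by 1 probe set, had a signal of 7.37 with DMSO, 7.01 with Y-27632, 6.55 with control siRNA and 6.81 with Mkl1 siRNA. The DMSO array was the highest and the control siRNA array the lowest. The control arrays differed by -0.82, a ratio of 0.568, which was more than either treatment differed from its own control, at -0.35 with Y-27632 (ratio 0.783) and 0.26 with Mkl1 siRNA (ratio 1.20). In size the control difference exceeded that of 98.0% of all probe sets. By the probe sets that stood for the genes, Cfb was the only one of the 4 analysed members to reach 1.5-fold in any of the 3 comparisons, and 7.52% of all genes did so between the controls.

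The choice of control array set the sign for Cfb. Against control siRNA, Y-27632 stood at 0.46, and against DMSO, Mkl1 siRNA stood at -0.56. All 3 arrays other than DMSO were below DMSO, and both treated arrays were above control siRNA.

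For C2, probe set 1416051_at read 6.71 with DMSO, 6.33 with Y-27632, 6.08 with control siRNA and 6.27 with Mkl1 siRNA. This is the order of arrays seen for Cfb. Probe set 1457664_x_at read 6.69, 6.32, 6.02 and 6.29 in that order of arrays, again with DMSO highest and control siRNA lowest. Between the controls they differed by -0.63 and -0.67. Their differences from DMSO with Y-27632 were -0.38 and -0.37, and those from control siRNA with Mkl1 siRNA were 0.19 and 0.27.

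The C2 probe set with the highest mean, 1441912_x_at, stood for the gene in the counts and differed less. It read 6.99 with DMSO, 6.83 with Y-27632, 6.90 with control siRNA and 6.84 with Mkl1 siRNA, with differences of -0.16, -0.06 and -0.09. The DMSO array was again the highest, but the arrays spanned only 0.157, against 0.63 and 0.665 for the other C2 probe sets. With Mkl1 siRNA the C2 probe sets disagreed in sign, and their mean difference was 0.13.

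**Figure D2:**
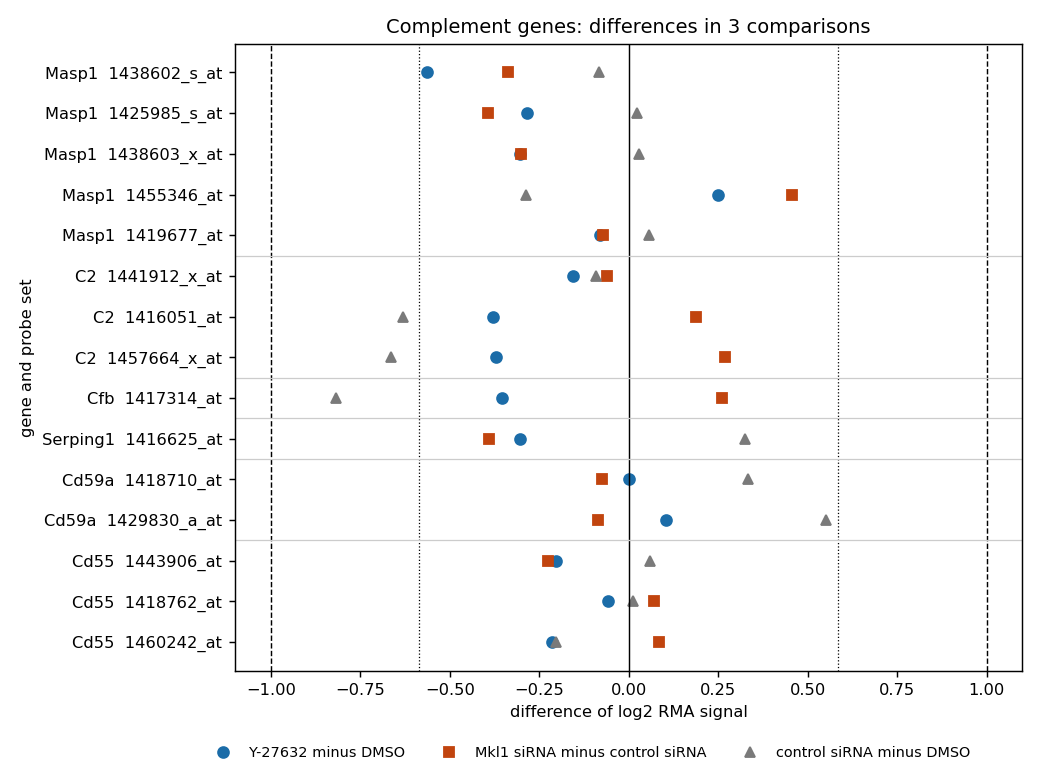
Differences of log2 RMA signal (horizontal axis) for the 15 probe sets in Y-27632 minus DMSO (circles), Mkl1 siRNA minus control siRNA (squares) and control siRNA minus DMSO (triangles); dotted lines mark 1.5-fold and dashed lines 2-fold. No point passes 2-fold, and the 3 points past 1.5-fold are Cfb at -0.82 and C2 at -0.67 and -0.63, all between the control arrays.

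Serping1 encodes the C1 inhibitor, which blocks C1r, C1s and MASP-1. Its single probe set read 4.15 with DMSO, 3.85 with Y-27632, 4.48 with control siRNA and 4.09 with Mkl1 siRNA. All of these lie below the median of all values, so the gene was left out of the counts. The differences were -0.30 with Y-27632, -0.39 with Mkl1 siRNA and 0.32 between the controls. The control siRNA array was the highest and each treated array was below its own control. Against control siRNA the Y-27632 array stood at -0.63, while Mkl1 siRNA and DMSO differed by -0.07. RMA compresses differences near background, so ratios at this signal may be too small.

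Cd59a encodes CD59, which blocks assembly of the membrane attack complex on host cells. Probe set 1418710_at read 9.72 with DMSO, 9.72 with Y-27632, 10.05 with control siRNA and 9.97 with Mkl1 siRNA. Probe set 1429830_a_at read 9.41, 9.51, 9.96 and 9.88 in that order of arrays. On both probe sets the transfected arrays were above the arrays without transfection, whichever siRNA was used.

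The treatments themselves differed little for Cd59a. With Y-27632 the differences were 0.00 and 0.10, and with Mkl1 siRNA they were -0.08 and -0.09. Between the controls they were 0.33 and 0.55, ratios of 1.26 and 1.47. Against DMSO the Mkl1 siRNA array stood at 0.26 and 0.47, and against control siRNA the Y-27632 array stood at -0.33 and -0.45. The labels do not say whether the DMSO cells were given transfection reagent, so siRNA, reagent and any separate handling cannot be told apart.

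Cd55 encodes decay-accelerating factor, which breaks up C3 convertases on the cell surface. Its 3 probe sets ran from 2.60 to 3.10 over all arrays, near the lowest value in the data (2.02), and none reached 5.69. Probe set 1443906_at read 3.04 with DMSO, 2.83 with Y-27632, 3.10 with control siRNA and 2.87 with Mkl1 siRNA. Probe set 1418762_at ran from 2.87 to 3.01 and 1460242_at from 2.60 to 2.81. With Mkl1 siRNA their differences had both signs, at -0.23, 0.07 and 0.08. The Y-27632 array was the lowest on all 3, with differences from DMSO of -0.20, -0.06 and -0.21. A further probe set listed for Cd55 and another gene was not used.

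Read as single probe sets, 12 of the 15 were lower with Y-27632 than with DMSO. Their median was -0.21 and their range -0.56 to 0.25. Over all probe sets 44.5% were above DMSO and the median was -0.02. With Mkl1 siRNA, 9 of 15 were below control siRNA, with a median of -0.07 and a range from -0.39 to 0.46, while 47.9% of all probe sets were above 0 with a median of -0.01. Between the controls 7 of 15 were below 0, with a median of 0.01 and a range from -0.82 to 0.55, while 51.0% of all probe sets were above 0 with a median of 0.01. Probe sets of 1 gene read the same RNA and are not replicates.

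**Figure D3:**
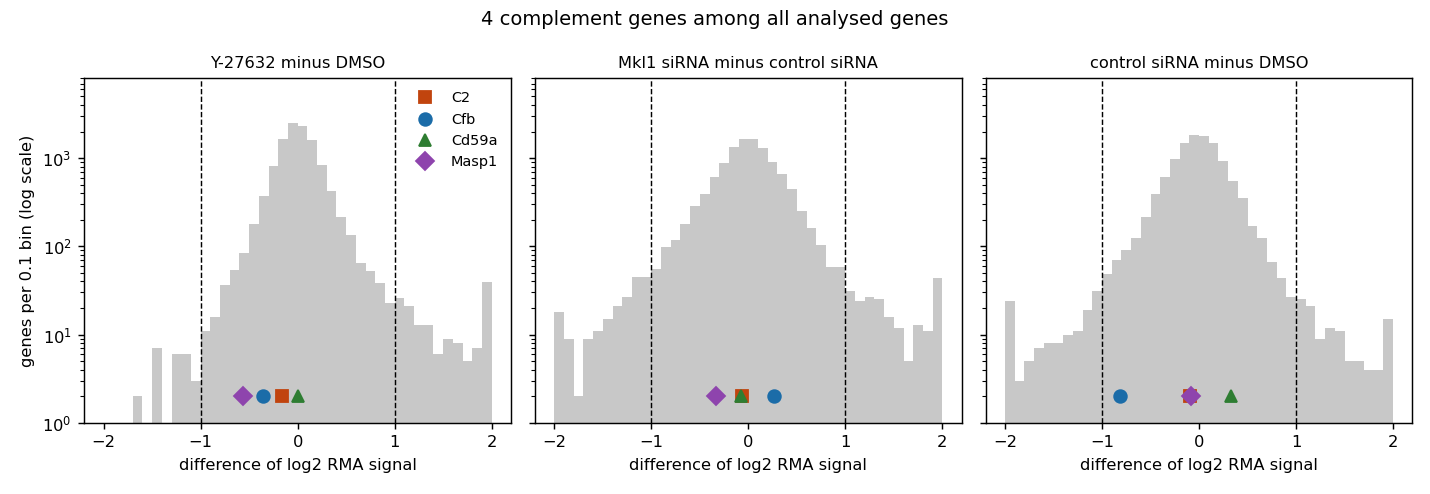
Number of analysed genes (vertical axis, log scale) by difference of log2 RMA signal (horizontal axis, bins of 0.1) in each comparison, with the outermost bars holding all genes beyond them; symbols mark C2, Cfb, Cd59a and Masp1 at their difference, with an arbitrary height, and dashed lines mark 2-fold. The 4 genes lie inside 2-fold in every panel, with Cfb at -0.82 between the controls the furthest from 0.

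Of 50 further complement genes listed, 40 had a single-symbol probe set and 14 reached the filter. With Y-27632, 1 of the 14 was at least 2-fold higher and 0 lower, beside 1.27% and 0.224% of all genes. With Mkl1 siRNA, 1 was at least 2-fold higher and 1 lower, beside 1.79% and 1.74%. Between the controls, 0 were at least 2-fold higher and 2 lower, beside 0.957% and 1.09%. The median differences of the 14 were 0.01, -0.03 and -0.03, and 5 genes made up all of these counts (C3ar1, Itgb2, Clu, Vtn and C8g).

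Among the starting proteases, which like MASP-1 are blocked by C1 inhibitor, the differences were small. C1ra, which encodes C1r, read 11.47 with DMSO, 11.17 with Y-27632, 11.15 with control siRNA and 10.94 with Mkl1 siRNA. The DMSO array was the highest, and the differences were -0.29, -0.21 and -0.32. C1s1, which encodes C1s, ran from 12.23 to 12.46, with differences of -0.06, -0.07 and 0.17. Cr1l, which encodes the rodent convertase inhibitor Crry, ran from 10.05 to 10.29 on its brightest probe set, with differences of -0.05, -0.24 and 0.12.

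C3ar1, the receptor for the C3a fragment, was the gene counted as lower with Mkl1 siRNA. Its brightest probe set read 7.95 with DMSO, 7.24 with Y-27632, 8.26 with control siRNA and 6.94 with Mkl1 siRNA. Both treated arrays were below both controls, by -0.71 with Y-27632 (ratio 0.611) and -1.32 with Mkl1 siRNA (ratio 0.399). All 3 of its probe sets had this order, with differences from -0.77 to -0.58 with Y-27632 and from -1.32 to -1.02 with Mkl1 siRNA. Against the other control array the differences were -1.03 with Y-27632 and -1.01 with Mkl1 siRNA.

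Itgb2, the beta chain of the leukocyte integrins that include complement receptors 3 and 4, read 7.38 with DMSO, 7.56 with Y-27632, 6.35 with control siRNA and 5.47 with Mkl1 siRNA. Both transfected arrays were below both arrays without transfection. It differed by -1.03 between the controls, by -0.87 with Mkl1 siRNA and by 0.17 with Y-27632. C3ar1 and Itgb2 are best known from myeloid cells, whose markers Ptprc (3.33 to 3.48), Adgre1 (3.76 to 4.13) and Tyrobp (3.76 to 3.96) lay below 5.69 on every array. The myeloid markers Csf1r (6.38 to 6.45) and Cd14 (7.28 to 7.98) lay above it, and the part of myeloid cells in these differences was not tested.

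Clu encodes clusterin and Vtn vitronectin, fluid-phase inhibitors of the membrane attack complex. The brightest Clu probe set read 6.93 with DMSO, 7.94 with Y-27632, 6.06 with control siRNA and 6.66 with Mkl1 siRNA. Y-27632 was the highest array and control siRNA the lowest, with differences of 1.01, 0.59 and -0.87. The 4 Clu probe sets ran from 1.01 to 2.58 with Y-27632, from -0.12 to 0.74 with Mkl1 siRNA and from -1.36 to 0.21 between the controls. All 4 are named as able to bind more than 1 transcript.

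The brightest Vtn probe set read 7.40 with DMSO, 7.49 with Y-27632, 5.77 with control siRNA and 5.84 with Mkl1 siRNA. The transfected arrays were the low pair, and the control difference was -1.63, a ratio of 0.324, while the treatments differed by 0.09 and 0.07. The second Vtn probe set differed by only -0.28 between the controls. C8g, which encodes the gamma chain of C8, read 5.87 with DMSO, 6.38 with Y-27632, 5.94 with control siRNA and 6.97 with Mkl1 siRNA, with differences of 0.50, 1.02 and 0.07. Its treated arrays were above both controls. C8g, Itgb2 and the brightest Clu probe set passed 2-fold only narrowly, while the Clu probe sets ran up to 2.58 with Y-27632. The Vtn and C8g probe sets also carry suffixes for several transcripts, so that without such probe sets Clu, Vtn and C8g had no call.

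**Figure D4:**
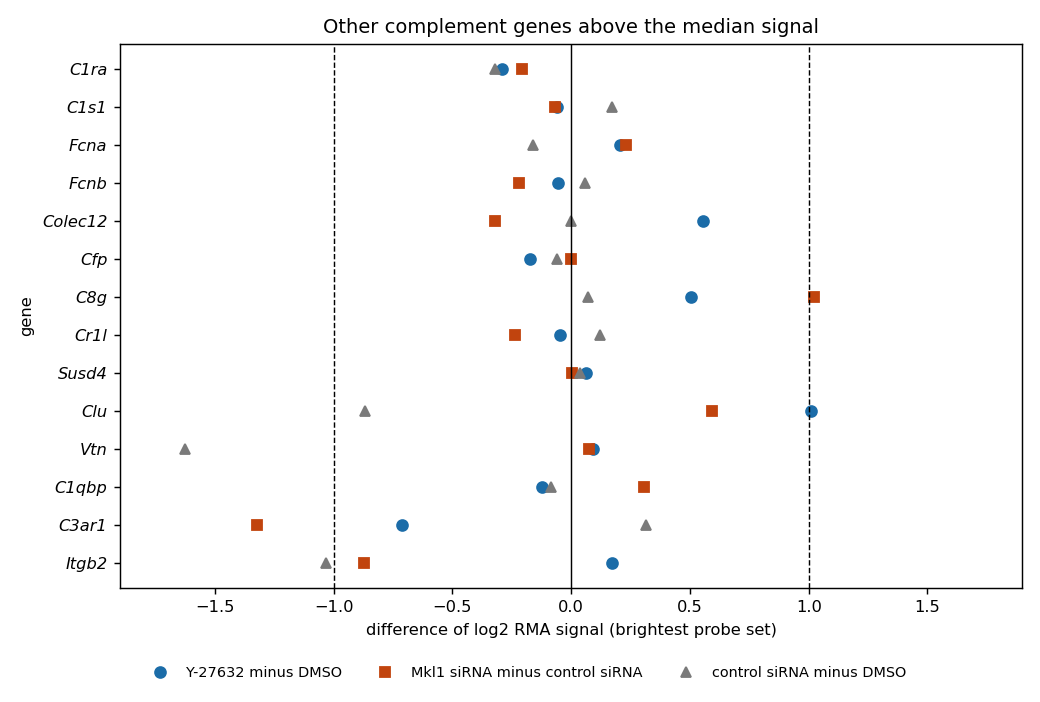
Differences of log2 RMA signal (horizontal axis) for the brightest probe set of the 14 further complement genes that reached the filter, in Y-27632 minus DMSO (circles), Mkl1 siRNA minus control siRNA (squares) and control siRNA minus DMSO (triangles); dashed lines mark 2-fold. Points past 2-fold are Clu with Y-27632 (1.01), C8g (1.02) and C3ar1 (-1.32) with Mkl1 siRNA, and Vtn (-1.63) and Itgb2 (-1.03) between the controls.

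The remaining 26 complement genes with a probe set stayed below the filter, among them the C1q chains. The C1qa probe set ran from 4.08 to 4.38 and that of C1qc from 4.34 to 4.49. The scavenger lectin Colec12 was brighter, from 10.72 to 11.60, and was higher by 0.56 with Y-27632 and different by -0.32 with Mkl1 siRNA.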

How the data were processed

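Each deposited value is the log2 signal of a probe set on an array. The authors used RMA, as the submitters' processing notes list; its version and settings were not found in the labels. RMA subtracts background, forces arrays to one distribution and combines probes, so a difference in total RNA per cell is not seen. Values ran from 2.02 to 14.6, with array medians from 5.67 to 5.71 and Pearson correlations between arrays from 0.987 to 0.995.

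Gene names came from the platform annotation: of 45101 probe sets, 34958 had 1 symbol, 932 several and 9211 none, and symbols were updated through a GRCm38.p6 gene table. Gene values did not use the 64 control probe sets. A gene (18193 in all) took its probe set of highest mean, and 11600 with at least 1 array at or above the overall median (5.69) entered the counts at 2-fold or more (a log2 difference of 1). Groups came from sample titles; nothing says how cultures were divided. Members and lists were chosen with earlier results of these data known. Named genes were all members, further complement genes at least 2-fold apart in any comparison, and Mkl1; for members at least 2-fold apart the most alike genes were to be named, and there were none. C1ra, C1s1, Cr1l, Colec12, C1qa and C1qc were added after their values were seen. Motifs were searched as listed. Calculations used Python 3.11.15 with pandas 2.3.3. The code for the 2-fold count was run on simulated data with added differences well past the threshold. That run checks the code and not the precision of 1 array per group.

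Alternatives were averaging a gene's probe sets, dropping probe sets with the suffix _s_at, _x_at or _a_at, omitting the filter or raising it to the 75th percentile (8.08), loess (span 0.3), centring on the median difference, a threshold of 1.5-fold and the other control array.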

Additional observations from a re-analysis of the deposited data

How the results depend on the processing

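With 1 array per group no array could be left out. No paired analysis was possible because each group has 1 array. The count of 0 members at least 2-fold apart was the same under every alternative run in each comparison (the other control array applies only to the 2 treatment comparisons), except that 1 gene, Cfb, passed at 1.5-fold between the controls. Member values moved by over 1.5 times for Masp1 without suffixed probe sets (_s_at, _x_at, _a_at) and for Cfb against the other control array. The probe set that stood for C2 is also suffixed. Without suffixed probe sets the C2 difference moved from -0.09 to -0.63 between the controls and from -0.06 to 0.19 with Mkl1 siRNA. At 1.5-fold, 502 (Y-27632), 1315 (Mkl1 siRNA) and 872 (controls) of all 11600 genes passed. Of the 14 further complement genes, 2 (Y-27632) and 4 (Mkl1 siRNA) did. Against the other control array, 323 and 692 of all 11600 genes were at least 2-fold apart, and 4 and 4 of the 14 further complement genes. With the filter at the 75th percentile, 110 (Y-27632), 275 (Mkl1 siRNA) and 164 (controls) of 7433 genes were at least 2-fold apart. Of 6 further complement genes, 0, 1 and 0 were in the 3 comparisons. Without suffixed probe sets the further complement genes were 0, 1 and 1 of 10, beside 149, 359 and 197 of 10016 genes. With a gene's probe sets averaged, 1 of 13 was at least 2-fold apart between the controls, beside 186 of 10621 genes. Dim probe sets (Serping1, Cd55) limit what could be seen.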

Other observations

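Interferon response genes, known in many cell types to be induced by interferon as Cfb and C2 can be, were set beside these genes. All 22 listed genes with a probe set reached the filter. Between the controls 21 of them were below DMSO, 7 at least 2-fold, beside 1.09% of all genes, with a median of -0.81. Cfb stood at -0.82, and the C2 probe sets ran from -0.67 to -0.09. With Y-27632, 21 of 22 were below DMSO, 1 at least 2-fold beside 0.224% of all genes, with a median of -0.51. Cfb stood at -0.35, and the C2 probe sets ran from -0.38 to -0.16. Against control siRNA the direction turned for the list and for Cfb. With Y-27632, 18 of 22 were higher (median 0.10), beside 52.4% of all analysed genes (median 0.02). The median size of a difference over all analysed genes was 0.18 there. Cfb stood at 0.46, and the C2 probe sets ran from -0.07 to 0.29. With Mkl1 siRNA, 20 of 22 were below control siRNA, 6 at least 2-fold beside 1.74% of all genes, with a median of -0.49. In that comparison Cfb stood at 0.26 and the C2 probe sets ran from -0.06 to 0.27. Against DMSO, all 22 were lower with Mkl1 siRNA, 15 at least 2-fold beside 375 of 11600 genes, with a list median of -1.32. There Cfb stood at -0.56, and the C2 probe sets ran from -0.44 to -0.15. Cd59a, whose upstream sequence held the interferon element, differed by 0.33 and 0.55 between the controls. Over all analysed genes, 48.5% were above 0 between the controls, 50.4% with Y-27632 against DMSO and 50.1% with Mkl1 siRNA against control siRNA. These comparisons share arrays, and no test was possible.

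Of 19 inflammatory and acute phase genes that reached the filter, 5 were at least 2-fold higher with Y-27632 beside 1.27% of all genes, and 3 with Mkl1 siRNA beside 1.79%. Between the controls 3 were at least 2-fold higher, beside 0.957%. At least 2-fold lower were 0, 2 and 1 of them, beside 0.224%, 1.74% and 1.09%. Their medians were 0.17, 0.25 and 0.22. Against control siRNA the Y-27632 median turned to -0.17, with 8 genes above 0 and 11 below, beside 52.4% of all analysed genes above 0.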
